A study of Mus musculus with 4 samples.

Results

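The 10 genes described here encode the cytokines that define T helper and inflammatory responses: Ifng, Lta, Il2, Il10, Il17a, Il22, Tnf, Il15, Il12b and Il6. They were chosen by name from the 32285 genes counted, and none of them was used to choose cells or samples. For each gene, the level was taken as its UMIs (unique molecular identifiers, 1 per captured transcript) per 10000 UMIs of a cell type in a tumor, together with the share of cells that held at least 1 UMI.

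The cells were viable CD45+ leukocytes sorted from EO771 mammary tumors of 1.5 cm3 that had been grown in the mammary fat pad of female C57BL/6 mice. EO771 is a mouse mammary carcinoma line that grows in this strain. The 2 control mice were Csf1rfl/fl, with a floxed Csf1r gene (the receptor that macrophages need for survival) and no Cre. The 2 Lyve1CreCsf1rfl/fl mice carried the same floxed alleles and a Cre recombinase driven from the Lyve1 locus, which is active in LYVE-1+ macrophages and also in lymphatic endothelium. Each of the 2 Chromium runs combined 1 tumor per genotype, marked with hashtag antibodies before pooling, and every tumor came from a single mouse. The ages of the mice are not given in the sources used here.

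T helper cells are sorted by the cytokines they release. Interferon gamma (Ifng) is the product of type 1 helper cells, natural killer (NK) cells and CD8 T cells, interleukin 17A and interleukin 22 are products of type 17 cells, and interleukin 10 is the cytokine by which regulatory cells restrain inflammation. Dendritic cells steer this choice with interleukin 12, of which Il12b encodes the shared p40 subunit, while TNF, interleukin 6 and interleukin 15 are made by myeloid cells and act on both lymphocytes and stroma.

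After the filters of the authors, 28429 of 53361 barcodes were kept, with 8699 (run 1) and 7786 (run 2) cells from Csf1rfl/fl tumors and 7173 and 4771 from Lyve1CreCsf1rfl/fl tumors. Median UMIs per cell lay between 3721 and 4657. In the Csf1rfl/fl tumor of run 1, 6.82% of cells had a leading hashtag under 3 times the other, against at most 1.41% in the other tumors, and 60 barcodes occurred in both runs. The authors had removed lymphocyte clusters that came almost only from the Lyve1CreCsf1rfl/fl tumor of run 2. Cells of these clusters were taken out in every tumor. The lymphocytes kept are thus a selected set, mostly so in that tumor. Cells were gated by lineage markers into 14 types with enough cells to test, which held 71.8% of kept cells with a gated B cell group of 24 cells included. The remainder were 1709 T cells that fitted no single subset, 2924 cells with markers of more than 1 lineage and 3391 cells that met no lineage gate. The T cells of no single subset still held Cd8a (0.710 UMIs per 10000), Cd4 (0.441) and Foxp3 (0.554). Cells that met no lineage gate held S100a9 (31.7) and Lyz2 (15.6). Of markers that the gates had not used, Ctla4 was highest in regulatory T cells at 5.03 UMIs per 10000, against 3.18 in conventional CD4 T cells and 0.690 in CD8 T cells, and Adgre1 in C1q macrophages at 1.69. A gated set of 198 cells with collagen or keratin transcripts held Ptprc, the gene of CD45, at only 0.110 UMIs per 10000, against 2.63 to 15.9 in the other gated types. It is called tumor and stromal cells here, although the sort was on CD45.

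The targeted gene Csf1r was present in all 4 tumors. In C1q macrophages its level was 1.83 and 2.42 UMIs per 10000 in the Csf1rfl/fl tumors and 1.45 and 1.73 in the Lyve1CreCsf1rfl/fl tumors, and in Ly6c2 monocytes it was 2.17 and 2.22 against 1.38 and 1.37. Both Lyve1CreCsf1rfl/fl tumors were lower in both types. The 3′ tag that is counted may lie outside the deleted part, so these values do not check the deletion. Lyve1 itself gave 20 to 43 UMIs per tumor over all kept cells and 2, 1, 0 and 0 UMIs in the C1q macrophages of the 4 tumors, so LYVE-1+ macrophages cannot be picked out by their own transcript here.

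In the mouse genome (mm10, GENCODE vM21), members of the set lie as neighbours at 2 loci. Tnf (chromosome 17, 35199381 to 35202007, minus strand) and Lta (chromosome 17, 35203165 to 35205351, minus strand) are separated by 1157 bases. Il22 (chromosome 10, 118204942 to 118210047, plus strand) and Ifng (chromosome 10, 118441046 to 118445892, plus strand) are separated by 230998 bases, and Iltifb, a near-identical copy of Il22, lies between them. The sequences below are the 250 bases before the annotated start of 4 genes (RefSeq, GRCm38.p6, strand of the gene). Il12b is shown because it was found almost only in mature dendritic cells, and Ifng because it was highest in CD8 T and NK cells. Tnf and Lta are shown as neighbours whose highest cell types differed. Capitals mark TATAAA, the TATA box, and GGAAAA or its complement TTTTCC, the core of an NFAT or NF-kB site.
Ifng, chr10:118440796-118441045, plus strand: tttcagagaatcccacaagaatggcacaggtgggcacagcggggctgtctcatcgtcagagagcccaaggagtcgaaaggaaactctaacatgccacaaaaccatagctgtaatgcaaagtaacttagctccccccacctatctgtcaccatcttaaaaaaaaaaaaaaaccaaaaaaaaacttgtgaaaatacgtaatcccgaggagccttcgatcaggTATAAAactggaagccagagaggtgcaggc
Il12b, chr11:44399813-44400062, plus strand: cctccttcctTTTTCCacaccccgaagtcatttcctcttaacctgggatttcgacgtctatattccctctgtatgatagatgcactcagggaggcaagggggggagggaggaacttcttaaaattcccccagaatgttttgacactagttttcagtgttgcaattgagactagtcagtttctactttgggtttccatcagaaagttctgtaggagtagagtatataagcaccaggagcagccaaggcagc
Tnf, chr17:35202008-35202257, minus strand: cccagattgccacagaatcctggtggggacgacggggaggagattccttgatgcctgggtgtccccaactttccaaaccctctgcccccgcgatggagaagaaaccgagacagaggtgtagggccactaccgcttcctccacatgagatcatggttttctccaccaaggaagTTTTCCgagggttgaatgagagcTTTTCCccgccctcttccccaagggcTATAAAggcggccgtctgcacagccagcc
Lta, chr17:35205352-35205601, minus strand: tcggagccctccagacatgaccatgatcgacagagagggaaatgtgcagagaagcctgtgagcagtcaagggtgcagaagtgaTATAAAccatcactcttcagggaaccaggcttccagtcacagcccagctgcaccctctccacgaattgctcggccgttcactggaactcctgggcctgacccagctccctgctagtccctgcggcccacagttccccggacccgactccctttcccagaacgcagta
TATAAA began 30 bases before the start of Ifng, 29 before that of Tnf and 167 before that of Lta, and was not among these letters of Il12b. GGAAAA, read on either strand, occurred 2 times before Tnf and 1 time before Il12b. Over 32851 promoters of the same length, 12.4% held TATAAA and 20.4% held GGAAAA on either strand, so such matches are common and are a description of the letters only. Of the 10 genes, 8 were matched to the promoter table.

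Over all kept cells, Tnf was detected in 6716 cells (23.6%), Il15 in 4860 (17.1%) and Ifng in 3726 (13.1%). Lta, Il6, Il10 and Il12b were detected in 687, 546, 491 and 463 cells, Il2 in 103, and Il17a and Il22 in 7 cells each. The cell type with the highest level differed from gene to gene, as the dot plot of cytokine genes by cell type shows. Ifng was highest in CD8 T and NK cells, Tnf and Il15 in neutrophils, Il12b and Il6 in mature dendritic cells, Il10 in regulatory T cells and Lta in gamma delta T cells.

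**Figure D1:**
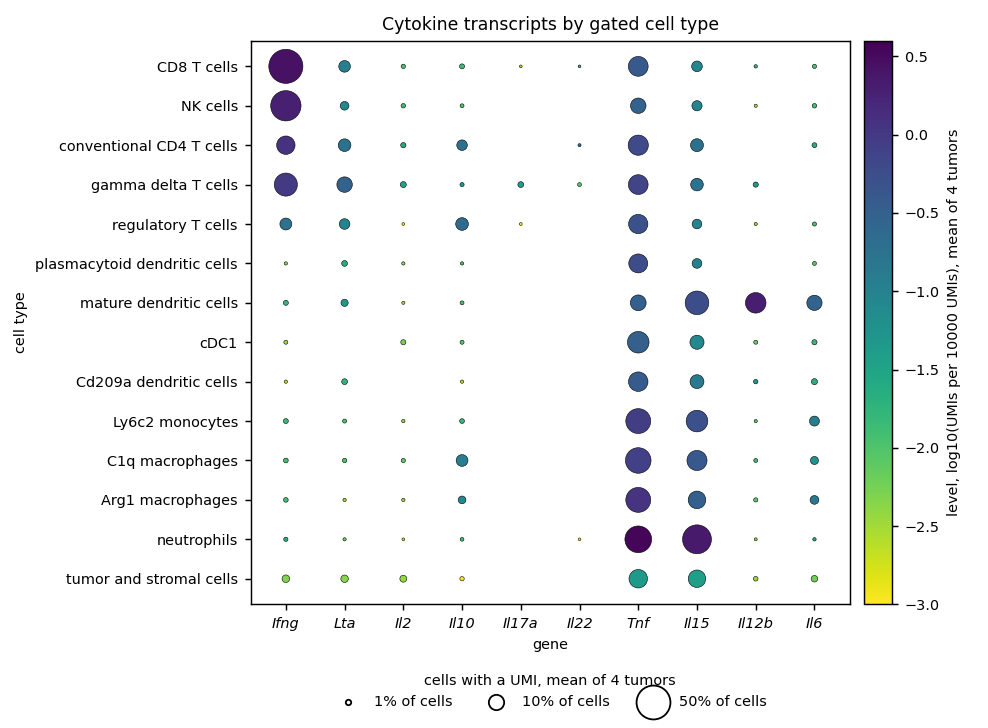
Cytokine genes (x axis) in 14 gated cell types (y axis). The size of a dot gives the mean share of cells with a UMI over the 4 tumors and its colour the mean level, as log10 of UMIs per 10000 UMIs. The largest dots are Ifng in CD8 T cells, at 50.7% of cells, and in NK cells, at 40.0%.

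Ifng encodes interferon gamma, which activates macrophages and raises antigen presentation. In CD8 T cells its level was 3.70 (run 1) and 2.51 (run 2) UMIs per 10000 in the Csf1rfl/fl tumors, and 2.38 and 2.46 in the Lyve1CreCsf1rfl/fl tumors. All pairs of values are given in this order of runs. The Csf1rfl/fl tumor of run 1 stood above the others, which lay close together. In NK cells the level was 2.02 and 1.96 in the Csf1rfl/fl tumors and 1.95 and 1.78 in the Lyve1CreCsf1rfl/fl tumors. Thus every tumor had more in CD8 T cells than any tumor had in NK cells, with means of 2.76 ± 0.627 and 1.93 ± 0.105 (SD, n = 4).
The share of cells with an Ifng UMI was 50.7% ± 8.68 in CD8 T cells and 40.0% ± 4.15 in NK cells (SD, n = 4). In neutrophils, taken as the background of free RNA, 0.501% of cells had a UMI, at a median of 2057 UMIs per cell against 5111 in CD8 T cells and 4180 in NK cells. With every cell thinned to 2000 UMIs the shares were 30.8%, 24.9% and 0.386%, after 189 of 3122 CD8 T cells, 193 of 1769 NK cells and 2120 of 4467 neutrophils that were shallower had been left out.

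The other T cells had less Ifng than CD8 T cells. Conventional CD4 T cells, gated on Cd4 without Foxp3, had 0.520 and 1.63 UMIs per 10000 in the Csf1rfl/fl tumors and 0.967 and 1.71 in the Lyve1CreCsf1rfl/fl tumors. In both genotypes run 2 was higher, and the range overlapped that of gamma delta T cells, where the tumors lay between 0.817 and 1.16. The conventional CD4 value rested on few cells: 94 of 667 cells held the 389 UMIs, and 1 cell held 85 of them. Regulatory T cells, gated on Foxp3, had 0.200 and 0.141 in the Csf1rfl/fl tumors and 0.255 and 0.126 in the Lyve1CreCsf1rfl/fl tumors, below every tumor of the other T cells and above every tumor of the neutrophils. In monocytes, macrophages and dendritic cells the share of cells with an Ifng UMI was at most 0.831%, close to that in neutrophils.

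Lta, which encodes lymphotoxin alpha, a TNF relative that organizes lymphoid tissue, was highest in lymphocytes, at low level. Gamma delta T cells had 0.304 and 0.129 UMIs per 10000 in the Csf1rfl/fl tumors and 0.310 and 0.456 in the Lyve1CreCsf1rfl/fl tumors, from 28 UMIs in 20 of 206 cells. Conventional CD4 T cells had 0.0791 and 0.158 against 0.250 and 0.242, and CD8 T cells 0.0549 and 0.116 against 0.109 and 0.194. In conventional CD4 T cells, and narrowly in gamma delta T cells, both Lyve1CreCsf1rfl/fl tumors were above both Csf1rfl/fl tumors, whereas in CD8 T cells the genotypes overlapped, although within each run the Lyve1CreCsf1rfl/fl tumor was the higher.
Regulatory T cells and NK cells followed with means of 0.0968 ± 0.0307 and 0.0834 ± 0.0293 (SD, n = 4), and mature dendritic cells with 0.0501 ± 0.0157, from 43 UMIs, and each type overlapped the next in this order. The share of cells with an Lta UMI was 10.2% ± 5.30 in gamma delta T cells, 1.98% ± 0.469 in mature dendritic cells and 0.180% in neutrophils, whose level was 0.00731. Although Tnf lies beside it, the order of cell types differed: neutrophils had the highest Tnf, and 8 Lta UMIs in 4467 cells.

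Il2, the growth factor of activated T cells, was close to the limit of detection, with 111 UMIs in all kept cells. CD8 T cells held 18 of them, NK cells 12, conventional CD4 T cells 9 and gamma delta T cells 3, and the tumors of these types overlapped. Regulatory T cells, which depend on interleukin 2 made by others, held 1 Il2 UMI in 1513 cells.

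Il17a and Il22, the type 17 cytokines, were each seen in 7 cells. The cells with Il17a were 3 gamma delta T cells, 2 T cells of no single subset, 1 regulatory T cell and 1 CD8 T cell, with 14 UMIs in all. Of the 102 Il22 UMIs, 55 were in 1 conventional CD4 T cell of the Lyve1CreCsf1rfl/fl tumor of run 1 and 31 in 1 CD8 T cell of the Csf1rfl/fl tumor of run 2. That CD8 T cell also held 4 Il17a, 6 Ifng and 12 Rora UMIs, Rora being a regulator of type 17 fate. Since Il22 may share reads with Iltifb, its counts are uncertain. No level by cell type can be read for either gene.

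Il10 was the 1 member whose levels were led by regulatory T cells. They had 0.337 and 0.129 UMIs per 10000 in the Csf1rfl/fl tumors and 0.0864 and 0.373 in the Lyve1CreCsf1rfl/fl tumors. Each genotype had a high and a low tumor, so the genotypes overlapped completely. Conventional CD4 T cells had 0.136 and 0.145 against 0.148 and 0.267, and C1q macrophages 0.158 and 0.111 against 0.0584 and 0.171.
These 3 types overlapped one another. The share of cells with a UMI was 6.78% ± 3.75 in regulatory T cells and 5.79% ± 2.49 in C1q macrophages (SD, n = 4), and its lowest among types with at least 1000 cells was 0.324% in neutrophils. Ly6c2 monocytes had 0.0166 ± 0.0161 and CD8 T cells 0.0141 ± 0.00227.

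The Il10 of conventional CD4 T cells lay in cells that also held a transcript of Ikzf2, which encodes Helios, a factor of regulatory T cells. Ikzf2 stood at 9.11 UMIs per 10000 in conventional CD4 T cells and 14.8 in regulatory T cells. The 477 conventional CD4 T cells with an Ikzf2 UMI held 56 of the 57 Il10 UMIs, at a level of 0.249 ± 0.139 (SD, n = 4), and the 190 cells without held 1. Both sets had similar depth, with medians of 3518 and 3404.5 UMIs per cell. Ikzf2 was also found in gamma delta T cells (5.50) and CD8 T cells (2.53). Whether some of these cells were regulatory T cells without a Foxp3 UMI was not tested. Ifng had 251 UMIs in cells with Ikzf2 and 138 in cells without, Tnf 129 and 73, Il15 38 and 25, and Lta 36 and 24. Their mean levels were lower with Ikzf2, although the tumors overlapped for each gene. They were 1.17 against 1.62 for Ifng, 0.527 against 0.784 for Tnf, 0.149 against 0.234 for Il15 and 0.154 against 0.267 for Lta. Of the sparse genes, the 7 Il6 UMIs were all in cells with Ikzf2 and the 55 Il22 UMIs in 1 cell without.

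Tnf encodes tumor necrosis factor, an early signal of inflammation. Its level in neutrophils was 3.37 and 4.63 UMIs per 10000 in the Csf1rfl/fl tumors and 3.54 and 2.70 in the Lyve1CreCsf1rfl/fl tumors, and every one of these exceeded every tumor of the other 13 types tested. Arg1 macrophages followed with 1.52 and 0.957 against 1.15 and 0.925, and Ly6c2 monocytes with 0.962 and 0.776 against 0.842 and 1.03. Arg1 macrophages, Ly6c2 monocytes and C1q macrophages (0.838 ± 0.0920, SD, n = 4) overlapped.
Lymphocytes also carried Tnf, with 0.752 ± 0.558 in gamma delta T cells, 0.609 ± 0.0636 in conventional CD4 T cells and 0.409 ± 0.0814 in CD8 T cells. Among regulatory T cells, the Csf1rfl/fl tumor of run 1 had 0.823 and the other 3 tumors had 0.395 to 0.415. The lowest level was in tumor and stromal cells, at 0.0444 ± 0.0350. Cells that met no lineage gate, whose median depth was 1991 UMIs, held 16.7% of all Tnf UMIs at 2.59 ± 0.349 (SD, n = 4), a range that overlapped that of neutrophils.

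The share of cells with a Tnf UMI differed less between neutrophils and monocytes than the level did. It was 30.9% ± 6.56 in neutrophils and 26.8% ± 3.91 in Ly6c2 monocytes (SD, n = 4), whose median depths were 2057 and 4983 UMIs. Thinned to 2000 UMIs, the shares were 32.2% ± 3.63 and 13.9% ± 1.88. This left out 2120 of 4467 neutrophils and 73 of 3813 monocytes that were shallower, so the neutrophil shares before and after are of different cells. At 1000 UMIs, with 114 neutrophils and 2 monocytes left out, they were 19.7% ± 2.80 and 7.95% ± 1.02.

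Il15 encodes interleukin 15, which sustains NK and memory CD8 T cells. Neutrophils had the highest level, with 1.68 and 2.33 UMIs per 10000 in the Csf1rfl/fl tumors and 2.23 and 2.89 in the Lyve1CreCsf1rfl/fl tumors, all above every tumor of the other 13 types. Mature dendritic cells (0.585 ± 0.0724), Ly6c2 monocytes (0.520 ± 0.102), C1q macrophages (0.403 ± 0.0882) and Arg1 macrophages (0.319 ± 0.116) followed, each overlapping the next. CD8 T cells and NK cells, which respond to interleukin 15, had 0.0886 ± 0.0169 and 0.0951 ± 0.0217 (SD, n = 4). The share of cells with an Il15 UMI was 36.3% ± 4.78 in neutrophils, 24.2% ± 2.62 in mature dendritic cells and 4.69% ± 1.21 in CD8 T cells, and it was 30.4%, 11.3% and 1.64% at 2000 UMIs per cell.

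Il12b was found almost only in mature dendritic cells. Mature dendritic cells, gated on Ccr7, Fscn1, Ccl22, Cacnb3 and Il4i1, had 2.35 and 2.71 UMIs per 10000 in the Csf1rfl/fl tumors and 1.64 and 1.19 in the Lyve1CreCsf1rfl/fl tumors. Both Csf1rfl/fl tumors were above both Lyve1CreCsf1rfl/fl tumors. The mean of 1.97 ± 0.688 (SD, n = 4) was 40.6 times that of the next type, Cd209a dendritic cells, at 0.0485, of whose 33 UMIs 25 were in 1 cell.
Mature dendritic cells held 70.05% of all Il12b UMIs, and cells with markers of more than 1 lineage held 23.1%. A UMI was found in 18.2% ± 2.22 of mature dendritic cells and in 0.221% of CD8 T cells. No UMI was found in 667 conventional CD4 T cells, which allows a share of up to 0.450% at the limit of 3 counts, nor in 456 plasmacytoid dendritic cells, which allows up to 0.658%. These limits are for cells with a UMI, not for cells that express the gene. Il12a, which encodes the p35 subunit of interleukin 12, gave 2 UMIs in all mature dendritic cells, and Il23a, which pairs with the same p40 subunit to form interleukin 23, gave 16.

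Il6, which encodes an acute-phase cytokine that turns T cells toward type 17 fate, was also highest in mature dendritic cells. They had 0.229 and 0.308 UMIs per 10000 in the Csf1rfl/fl tumors and 0.222 and 0.366 in the Lyve1CreCsf1rfl/fl tumors, with complete overlap of the genotypes. Ly6c2 monocytes had 0.0988 and 0.175 against 0.0964 and 0.106, and held 27.5% of Il6 UMIs against 26.5% in mature dendritic cells. Arg1 macrophages ranged from 0 to 0.340 and overlapped both. A UMI was found in 9.87% ± 1.20 of mature dendritic cells and in 0.490% of CD8 T cells, and in 4.91% and 0.113% at 2000 UMIs per cell.

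**Figure D2:**
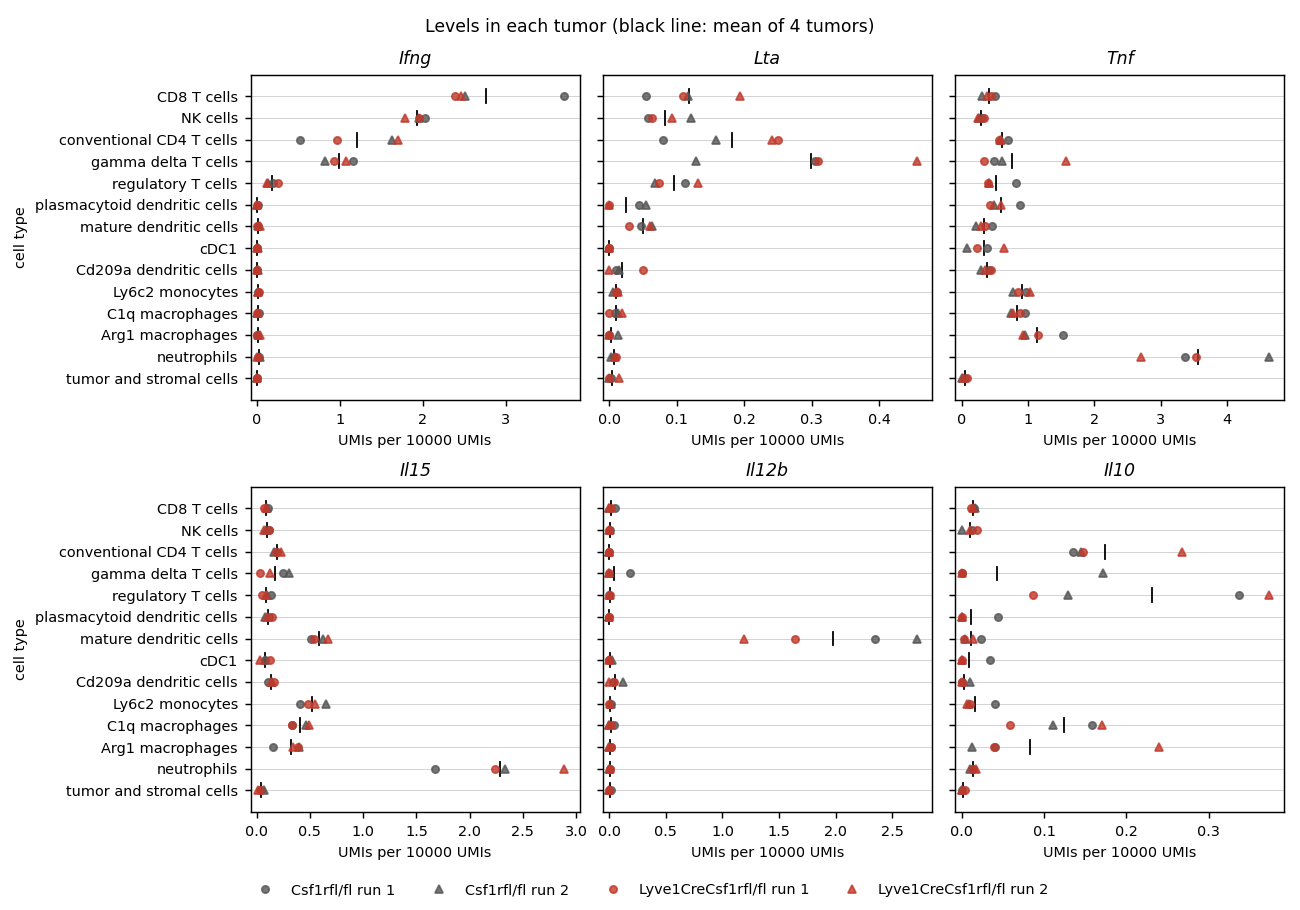
Level of 6 of the genes (x axis, UMIs per 10000 UMIs of the cell type) in 14 gated cell types (y axis). Each point is a tumor, with gray for Csf1rfl/fl and red for Lyve1CreCsf1rfl/fl, circles for run 1 and triangles for run 2, and the black line is the mean of the 4 tumors. Il12b in mature dendritic cells runs from 1.19 to 2.71, with both gray points above both red points, while Il10 in regulatory T cells runs from 0.0864 to 0.373 with the colours mixed.

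How evenly the positive cells shared the transcripts also set the genes apart. For Ifng, 452 of the 3726 positive cells held 50% of the UMIs and 46.4% of positive cells held a single UMI. For Il12b, 48 of 463 cells held 50%, and the highest cell, a mature dendritic cell of the Csf1rfl/fl tumor of run 2, had 99 UMIs of a total of 5711. Il15 was the most even of the abundant genes: no cell had more than 8 UMIs and 1420 of 4860 cells held 50%.
The top 10% of positive cells held 49.3% of Il12b UMIs, 46.1% of Ifng UMIs, 36.6% of Il6 UMIs, 36.0% of Tnf UMIs and 23.0% of Il15 UMIs. The highest Ifng cell, with 405 UMIs of 69820, carried markers of more than 1 lineage and was outside the gated types.

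**Figure D3:**
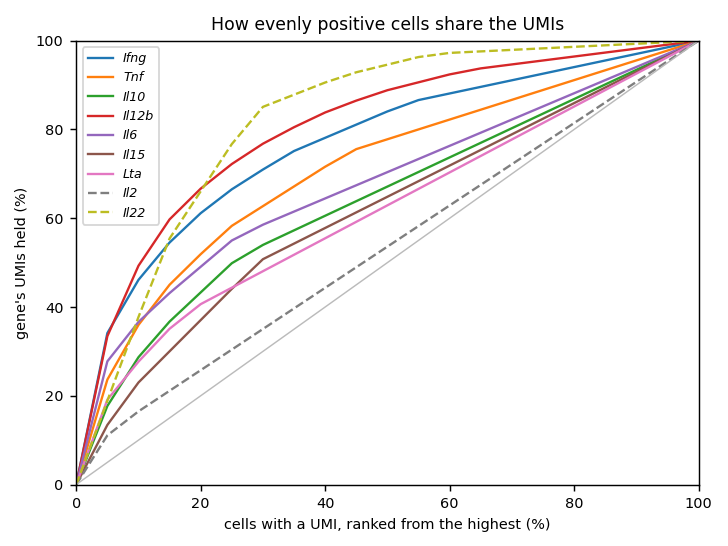
Share of a gene's UMIs (y axis, percent) held by its positive cells, ranked from the highest (x axis, percent of positive cells), over all kept cells. The diagonal marks an even spread. At 10% of positive cells the curve of Il12b stands at 49.3% and that of Il15 at 23.0%.

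To see which cytokines occurred in the same cells, cells of similar depth were compared (2000 to 6000 UMIs, and 1000 to 4000 for neutrophils). These are descriptions of cells from the same tumors, with no test. Among CD8 T cells, Tnf was found in 12.7% ± 2.45 of cells with an Ifng UMI and 12.6% ± 1.49 of cells without (SD, n = 4). Lta was found in 3.70% ± 2.11 and 5.40% ± 3.15, a lower share with Ifng in all 4 tumors, but its level was 0.163 ± 0.129 UMIs per 10000 with Ifng and 0.153 ± 0.0928 without, and was higher with Ifng in 3 of 4 tumors. Share and level thus differed in direction, and no order is read from them. Among neutrophils, Il15 was found in 35.6% ± 6.38 of cells with a Tnf UMI and 34.9% ± 4.35 of those without.
Mature dendritic cells with an Il12b UMI had Il6 in 21.1% ± 9.64 of cells, against 7.08% ± 1.15 of those without, and were higher in 3 of 4 tumors. The tumor without this difference was the Csf1rfl/fl tumor of run 1, with 8.11% and 8.15%.

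The pathway lists and other members were compared in the same way, with no test. Genes with at least 100 UMIs in the cells compared were counted, a minimum set after the data were seen. In CD8 T cells, 5 of 35 such genes were higher and 8 lower in cells with Ifng in all 4 tumors, and of all 6317 genes 13.9% were higher and 9.88% lower. In NK cells split by Ifng, 6 of 31 were higher and 2 lower, where all genes gave 8.28% and 7.44%. In mature dendritic cells split by Il12b it was 1 and 4 of 28, where all genes gave 8.87% and 14.7%. In neutrophils split by Tnf it was 10 and 6 of 32, where all genes gave 14.4% and 17.9%, and in regulatory T cells split by Il10 6 and 1 of 33, where all genes gave 6.62% and 9.33%. These counts are a description of the same cells and carry no test. The genes named next are examples, chosen after their values were seen. The 796 CD8 T cells with Ifng had more Bhlhe40 (3.15 against 2.35 UMIs per 10000 in 865 cells without), a factor that favours interferon production, and more Prdm1 (0.592 against 0.415), in all 4 tumors. They had less Ikzf2 (2.65 against 4.49) and less Eomes (0.367 against 0.558), in all 4 tumors. Their median depth was 4028 UMIs, against 3683.
The 163 mature dendritic cells with Il12b had more Ebi3 (1.27 against 0.581), the partner of Il27 in interleukin 27, and less Ltb (0.165 against 0.453), in all 4 tumors. The 1153 neutrophils with Tnf had more Il23a (1.28 against 0.333), and more of the NF-kB feedback genes Tnfaip3 (11.1 against 5.70) and Nfkbia (66.9 against 39.5), in all 4 tumors. The 46 regulatory T cells with Il10 had more Maf, an activator of Il10 (17.2 against 11.1), in all 4 tumors.

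The genes whose levels ran most like each member across the 56 sums of cell type and tumor were found among 12061 genes by Pearson correlation of log2(UMIs per 10000 + 0.01). Sums of 1 tumor share a library, and sums of 1 cell type share their cells, so these are descriptions. Ifng ran with Sh2d1a (r = 0.965), Nkg7 (0.954) and Cd96 (0.952), genes of cytotoxic lymphocytes. Tnf ran with Ccrl2 (0.904), Srgn (0.884) and Lilr4b (0.874), and Il15 with Mcl1 (0.913), Cd274 (0.911) and Kdm6b (0.900).
Lta ran with Lef1 (0.876), Thy1 (0.862) and S1pr1 (0.856), and Il10 with Maf (0.769), Cela1 (0.676) and Tspan32 (0.671). Il12b ran with Syn3 (0.872), Gm13546 (0.868) and Strip2 (0.858), and Il6 with Tnfsf15 (0.795), Inpp5j (0.788) and Flrt3 (0.753). The highest values for Il2 (Zfp963, Ntrk3 and Gzme, 0.667 to 0.553) and Il22 (Trbv2, C2cd4b and Gm39323, 0.512 to 0.439) rest on few UMIs.

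Cell types were then compared in 6 fixed pairs with the edgeR quasi-likelihood test on UMIs summed per tumor, with the tumor as a block, n = 4 tumors, and Benjamini-Hochberg adjustment over the 11550 genes tested. Of the 10 members, 7 passed the filter on low counts, while Il17a, Il22 and Il2 did not. Beside them stood 4 fixed lists of pathway genes: 19 cytokine receptors, 13 partners and other T helper cytokines, 12 regulators of T helper fate and 10 genes of cytokine mRNA decay and feedback. Folds are given on the log2 scale with the SE, and a gene was called at an adjusted p below 0.05.

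**Figure D4:**
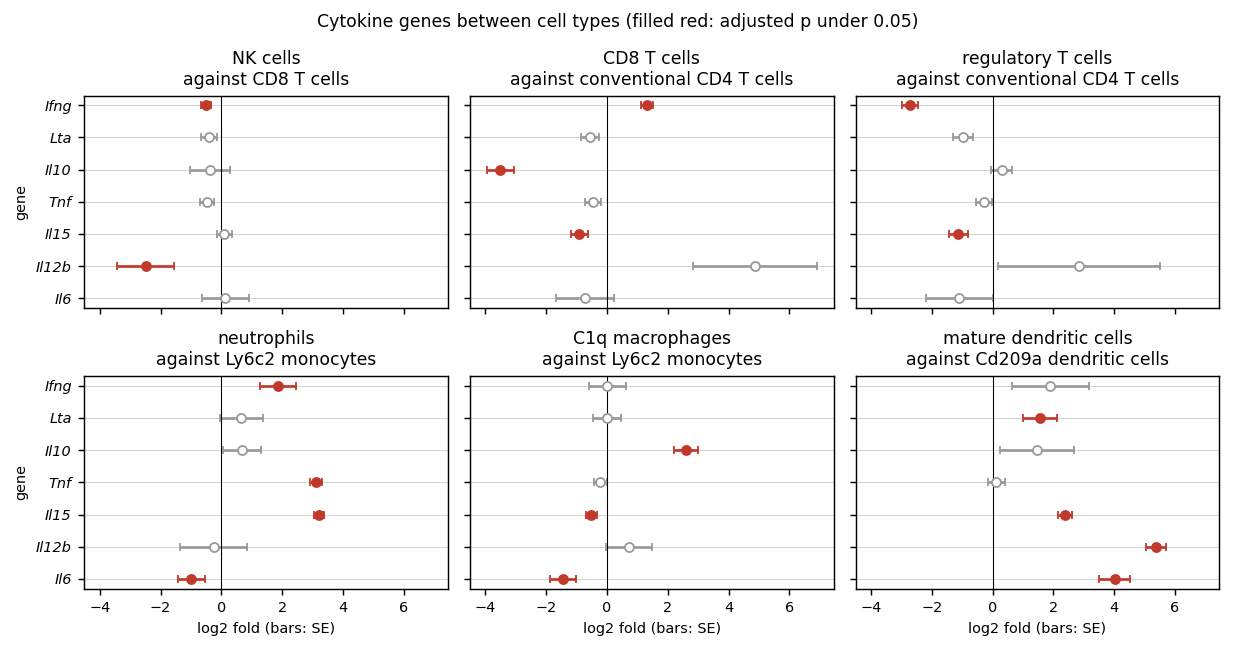
Log2 fold (x axis) of the 7 cytokine genes that passed the filter (y axis) in 6 pairs of cell types, the first named against the second. Points are edgeR estimates from 4 tumors, bars are the SE, and filled red points have an adjusted p below 0.05. The farthest called point to the right is Il12b in mature against Cd209a dendritic cells, at 5.38, and the farthest to the left is Il10 in CD8 against conventional CD4 T cells, at -3.51.

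Between NK and CD8 T cells, which held most Ifng, Ifng was lower in NK cells by a log2 fold of -0.50 ± 0.17 (adjusted p = 0.0304 by edgeR), and lower in 4 of 4 tumors. The call was lost without the Csf1rfl/fl tumor of run 2 (-0.53, adjusted p = 0.0849), without the Lyve1CreCsf1rfl/fl tumor of run 1 (-0.57, adjusted p = 0.0563) or run 2 (-0.52, adjusted p = 0.0728), and without the tumor block (-0.52, adjusted p = 0.105). Il12b was also lower in NK cells (-2.49 ± 0.93, adjusted p = 0.0494), from 3 UMIs in NK cells and 46 in CD8 T cells. Of the 46, 39 were in 5 cells of the Csf1rfl/fl tumor of run 1, and without that tumor the fold was -0.76 (adjusted p = 0.728). This call was also lost without the Lyve1CreCsf1rfl/fl tumor of run 1 (-2.29, adjusted p = 0.150) or run 2 (-2.52, adjusted p = 0.0836), and the direction turned with gates of double the UMIs (0.86, adjusted p = 0.375).
The filter on low counts ran over all cell types, so that Il12b, with its 3 and 46 UMIs, passed through other types, and within CD8 T or NK cells alone 4 members passed. Of the 7 members tested 2 were called lower and none higher, where 20.9% of all genes were called, 9.51% as higher and 11.4% as lower, and nothing is read from that count. Tnf, at -0.47 ± 0.24, and Lta, at -0.41 ± 0.27, did not pass. Of the receptors tested, 7 of 17 were higher in NK cells and 3 lower, with a median of -0.15 where all genes had -0.06. The interleukin 12 receptor chains Il12rb2 (1.62) and Il12rb1 (0.94) were higher and Il6st (-1.65), the signal chain of interleukin 6, was lower. Among regulators, Tbx21 (0.59), which encodes the type 1 factor T-bet, was higher and Rora (-1.57) lower.

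Between CD8 and conventional CD4 T cells, Ifng was higher in CD8 T cells by 1.32 ± 0.20 (adjusted p = 8.3e-07 by edgeR), although with gates of double the UMIs it was 0.52 (adjusted p = 0.168). Il10 was lower by 3.51 ± 0.46 (log2 fold -3.51, adjusted p = 3.3e-08). With gates of double the UMIs it was -1.61 (adjusted p = 0.233). Il15 was lower as well (-0.92 ± 0.28, adjusted p = 0.0149), a call that was lost without either Lyve1CreCsf1rfl/fl tumor (-0.87, adjusted p = 0.0570, without run 1 and -0.78, adjusted p = 0.118, without run 2) or with gates of double the UMIs (-0.23, adjusted p = 0.807).
Thus 1 of 7 members was higher and 2 were lower in CD8 T cells, where 17.2% of all genes were called, 8.75% as higher and 8.42% as lower. Of the 11 regulators tested, 3 were higher in CD8 T cells and 6 lower, with a median of -0.65 against 0.03 over all genes. Eomes (2.94) was higher, and Maf (-3.17), Rora (-1.93) and Ikzf2 (-1.66) were lower. Of the 10 decay and feedback genes, 5 were lower and none higher. Scaling by total UMIs alone turned the calls over all genes from 1011 higher and 972 lower to 612 and 1473.

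Between regulatory and conventional CD4 T cells, Ifng was lower in regulatory T cells by a log2 fold of -2.72 ± 0.25 (adjusted p = 1.4e-11 by edgeR), and kept its call under every alternative run. Il15 was lower (-1.13 ± 0.31, adjusted p = 0.0261), a call that was lost without the Csf1rfl/fl tumor of run 2 (-1.25, adjusted p = 0.0582) and without the Lyve1CreCsf1rfl/fl tumor of run 1 (-0.91, adjusted p = 0.207) or run 2 (-1.04, adjusted p = 0.220). It was also lost with gates of double the UMIs (-0.74, adjusted p = 0.470) and with no tumor block (adjusted p = 0.0523).
Il10 did not differ past the threshold, at 0.29 ± 0.34 with a 95% interval from -0.38 to 0.97 (adjusted p = 0.76). No Il10 fold of regulatory T cells is given against the conventional CD4 T cells without Ikzf2, a set chosen after its single Il10 UMI had been seen. Lta was lower by -0.97 ± 0.33 without passing (adjusted p = 0.093). It stayed uncalled in 7 of 11 alternatives and passed in the rest, with folds from -2.02 to -0.64 over the 11. The set without Ikzf2 is among the 11. Without the Csf1rfl/fl tumor of run 1, Lta passed (-1.30, adjusted p = 0.0310). Here 2 of 7 members were lower and none higher, and 3.58% of all genes were called, 1.09% as higher and 2.49% as lower. Il2ra (0.89), the receptor chain by which regulatory T cells capture interleukin 2, was higher, and Il12rb2 (-1.12), Csf2 (-2.46) and Stat4 (-0.75), which transmits interleukin 12 signals, were lower.

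Between neutrophils and Ly6c2 monocytes, Tnf was higher in neutrophils by 3.12 ± 0.20 (adjusted p = 5.4e-20 by edgeR) and Il15 by 3.21 ± 0.15 (adjusted p = 6.3e-26), and both kept their calls under every alternative run. This pair depended on the scaling: with total UMIs as the only scaling the median of all genes moved from -0.19 to -1.24, and Tnf and Il15 to 2.02 and 2.12. Ifng was called higher (1.86 ± 0.59, adjusted p = 0.0051) from only 26 UMIs in neutrophils and 28 in monocytes, and the call was lost without the Csf1rfl/fl tumor of run 2 (1.24, adjusted p = 0.146), with total UMIs as the only scaling (0.77, adjusted p = 0.212) and with gates of double the UMIs (0.62, adjusted p = 0.345). Il6 was lower (-1.0 ± 0.44, adjusted p = 0.0441), a call that was lost without the Csf1rfl/fl tumor of run 1 (-0.62, adjusted p = 0.241) or either Lyve1CreCsf1rfl/fl tumor (-0.49, adjusted p = 0.396, for run 1 and -0.84, adjusted p = 0.131, for run 2). It was also lost with RLE size factors (-0.78, adjusted p = 0.128), with a hashtag ratio of at least 3 (-0.92, adjusted p = 0.0690) and with no tumor block (adjusted p = 0.0729).
Of the 7 members tested 3 were called higher and 1 lower, where 66.1% of all genes were called, 30.3% as higher and 35.7% as lower. Nothing is read from that count, since 1 of the 3 is Ifng, whose share in neutrophils was taken above as the background of free RNA, and since within neutrophils alone 2 members passed the filter and within Ly6c2 monocytes 3. With total UMIs the calls over all genes went from 3503 higher and 4127 lower to 1626 and 7490, and 2 members were higher and 1 lower. Of the decay and feedback genes, which limit the life of cytokine mRNA and NF-kB signals, 9 of 10 were higher in neutrophils, with a median of 3.12. They included Tnfaip3 (3.97), Nfkbia (3.92) and Zfp36 (3.45). With total UMIs as the only scaling, 7 were higher and 2 lower, with a median of 2.03. Il23a (4.24) and Il12a (4.08) were also higher, from 751 and 123 UMIs in neutrophils against 148 and 26 in monocytes.

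Between C1q macrophages and Ly6c2 monocytes, Il10 was higher in macrophages by 2.60 ± 0.40 (adjusted p = 9.3e-07 by edgeR), under every alternative run. Il6 was lower (-1.46 ± 0.43, adjusted p = 0.0085), but did not pass without the Csf1rfl/fl tumor of run 2 (-1.17, adjusted p = 0.0991). Il15 was lower (-0.51 ± 0.18, adjusted p = 0.0262) and was lost without the Csf1rfl/fl tumor of run 2 (-0.51, adjusted p = 0.113), without the Lyve1CreCsf1rfl/fl tumor of run 1 (-0.48, adjusted p = 0.0691) and with total UMIs as the only scaling (-0.39, adjusted p = 0.0902). It was also lost with RLE size factors (-0.45, adjusted p = 0.0630), with a hashtag ratio of at least 3 (-0.45, adjusted p = 0.0651) and with no tumor block (adjusted p = 0.0836). Tnf differed by only -0.22 ± 0.22.
Thus 1 of 7 members was higher and 2 were lower, where 24.5% of all genes were called, 10.6% as higher and 13.8% as lower. Maf (1.47) was higher in macrophages with Il10. Of 17 receptors, 8 were lower and 1 higher, with a median of -0.47 against -0.02 over all genes, and Il17ra (-1.31) and Il15ra (-1.13) were the lowest. Scaling by total UMIs turned the calls over all genes from 1229 higher and 1598 lower to 1796 and 1114.

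Between mature and Cd209a dendritic cells, Il12b was higher in mature dendritic cells by 5.38 ± 0.33 (adjusted p = 4.4e-19 by edgeR), Il6 by 4.01 ± 0.52 (adjusted p = 3.2e-09) and Il15 by 2.39 ± 0.23 (adjusted p = 2.4e-13), and all 3 kept their calls under every alternative run. Lta was higher by 1.55 ± 0.55 (adjusted p = 0.0153), which was lost without the Csf1rfl/fl tumor of run 1 (1.39, adjusted p = 0.0507) or run 2 (1.06, adjusted p = 0.232) and without the Lyve1CreCsf1rfl/fl tumor of run 2 (1.25, adjusted p = 0.0851). It was also lost with gates of double the UMIs (1.33, adjusted p = 0.0957) and with total UMIs as the only scaling (1.27, adjusted p = 0.0508). Tnf was at 0.12 ± 0.28, with an interval from -0.42 to 0.66.
Thus 4 of 7 members were higher and none lower, where 50.1% of all genes were called, 25.6% as higher and 24.5% as lower. Nothing is read from that count. The filter ran over all cell types, and Il12b, Il6 and Lta had only 33, 11 and 10 UMIs in Cd209a dendritic cells. Of 17 receptors, 8 were higher and 6 lower, and with total UMIs as the only scaling 5 were higher and 6 lower. Il2ra (5.08) and Il15ra (4.08), which presents interleukin 15 to other cells, were higher, and Il6ra (-2.14) was lower. Of 11 regulators, 6 were higher and none lower, among them Stat4 (4.29) and Stat3 (2.37). Csf2, a myeloid growth factor, had 37 UMIs in mature dendritic cells and 0 in 695 Cd209a dendritic cells. With total UMIs as the only scaling, the median of all genes moved from 0.01 to -0.27, the calls over all genes from 2954 higher and 2830 lower to 2028 and 4072, and 3 members were called.

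Over the 6 pairs, 18 of the 42 folds tested were called, sparse members that passed the filter through other types included. The share of all genes called ran from 3.58% to 66.1% between the pairs, and nothing is read from the count. Of the 18, 7 kept their call and sign under every alternative run between cell types, which did not include DESeq2. These were Ifng in regulatory against conventional CD4 T cells, Tnf and Il15 in neutrophils, Il10 in C1q macrophages, and Il12b, Il6 and Il15 in mature dendritic cells.

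The genotypes were then compared within each cell type, to ask whether cytokine transcription differed in tumors of Lyve1CreCsf1rfl/fl mice. With n = 2 tumors per genotype, no exact permutation test of 1 value could give a two-sided p below 0.333, so the edgeR test across all genes was used. No gene passed an adjusted p of 0.05 in any of the 14 cell types, at 108843 tests (0% called), and 2374 tests (2.18%) had an unadjusted p under 0.05. DESeq2 called 19 genes, none of them a member. The members gave 40 tests, of which 0 were called and 3 had an unadjusted p under 0.05.

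**Figure D5:**
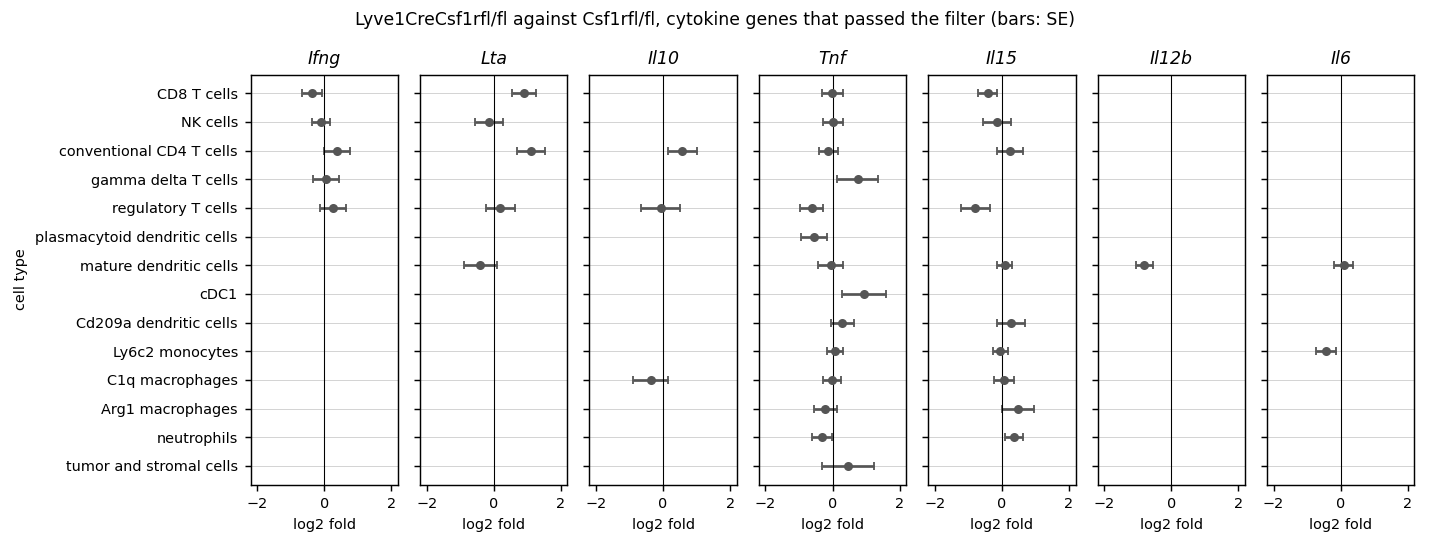
Log2 fold of Lyve1CreCsf1rfl/fl over Csf1rfl/fl tumors (x axis) for 7 cytokine genes, by cell type (y axis). Points are edgeR estimates from 2 tumors per genotype and bars are the SE. None passed an adjusted p of 0.05; Il12b in mature dendritic cells lies at -0.81 and Lta in conventional CD4 T cells at 1.11.

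Il12b in mature dendritic cells was among these 3, lower in Lyve1CreCsf1rfl/fl tumors by a log2 fold of -0.81 ± 0.26, with a 95% interval from -1.32 to -0.30 (edgeR adjusted p = 0.9998). With the Chromium run as a block, the adjusted p was 0.0455 (-0.83 ± 0.14), beside 240 genes called over all types, and without the Lyve1CreCsf1rfl/fl tumor of run 2 the fold was -0.53. The share of positive cells was 20.8% and 19.2% in the Csf1rfl/fl tumors and 16.8% and 16.0% in the Lyve1CreCsf1rfl/fl tumors.
The other 2 were Lta in CD8 T cells (0.90 ± 0.36, interval 0.19 to 1.61) and in conventional CD4 T cells (1.11 ± 0.43, interval 0.27 to 1.95). The removal of lymphocyte clusters touched the Lyve1CreCsf1rfl/fl tumor of run 2 most. Without that tumor the fold in CD8 T cells was 0.53, and without the Csf1rfl/fl tumor of run 1 it was 0.51. In conventional CD4 T cells it was 1.19 and 0.76.

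Ifng, Tnf, Il15, Il10 and Il6, tested in the cell types where their levels were highest, did not pass the threshold with or without the run as a block, and their 95% intervals without the block included 0. For Ifng, the fold was -0.37 ± 0.29 in CD8 T cells (interval -0.94 to 0.20) and -0.09 ± 0.26 in NK cells. For Tnf and Il15 in neutrophils it was -0.32 ± 0.29 (interval -0.89 to 0.26) and 0.36 ± 0.27 (interval -0.16 to 0.89). For Il10 in regulatory T cells it was -0.07 ± 0.59 (interval -1.22 to 1.07), and for Il6 in mature dendritic cells 0.09 ± 0.28.
Tnf in regulatory T cells, at -0.62 ± 0.34, was called without the Csf1rfl/fl tumor of run 2 (-1.14, edgeR adjusted p = 0.0086), which left as the only control the tumor with the high value. The summed markers of monocytes and macrophages (Ly6c2, Lyz2, C1qa, C1qb, C1qc and Csf1r) in regulatory T cells were also highest in that tumor, at 15.4 UMIs per 10000, against 9.57 in the other Csf1rfl/fl tumor and 5.11 and 5.39 in the Lyve1CreCsf1rfl/fl tumors. Summed neutrophil markers were highest there too, at 18.0, against 9.07 in the other Csf1rfl/fl tumor and 11.9 and 7.86 in the Lyve1CreCsf1rfl/fl tumors. Ly6c2 itself was found in T cells, at 8.82 in CD8 T cells and 2.46 in regulatory T cells. The monocyte and macrophage sum was highest in the same tumor also in CD8 T (18.9), conventional CD4 T (20.7) and NK cells (8.66). In Ly6c2 monocytes it was not. The part of either set of markers in the result was not tested. Tnf in cDC1 was called without the Csf1rfl/fl tumor of run 1 (2.35, edgeR adjusted p = 0.0144), from 0.375 and 0.0816 UMIs per 10000 in the Csf1rfl/fl tumors and 0.237 and 0.633 in the Lyve1CreCsf1rfl/fl tumors. In both, the lone control is assumed to vary like the other group. Il22 in conventional CD4 T cells was called without either Csf1rfl/fl tumor or the Lyve1CreCsf1rfl/fl tumor of run 2, each time on the 1 cell with 55 UMIs.

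The difference of the genotype effect between the cell types of each of the 6 pairs was tested for 8 of the 10 members over 12269 genes. None was called by edgeR (0% of all genes), and 1, Il22 in CD8 against conventional CD4 T cells, had an unadjusted p under 0.05 (adjusted p = 0.385), which rests on the 2 cells with 31 and 55 UMIs. On simulated counts of CD8 against conventional CD4 T cells, this test recovered 9% of 2-fold and 57% of 4-fold changes. The lack of calls thus does not exclude such differences.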

How the data were processed

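Viable CD45+ cells of 4 tumors were profiled with 10x Genomics 3′ v2 chemistry in 2 pooled runs. The authors aligned reads to mm10 with Cell Ranger 6.0.1 and kept singlets with under 5% mitochondrial reads in Seurat. They removed, in every tumor, the cells of lymphocyte clusters that came almost only from 1 tumor. The deposited raw table holds UMI counts of 32285 genes. The deposited SCTransform table of 18449 genes, whose values are corrected scores rather than counts, served only to name the kept cells. The higher of both hashtag counts of the run, scaled by the centered log ratio, assigned a barcode to its tumor. For 75 kept cells the unscaled counts named the other tumor. GEO describes pooled runs, so the genotype of a hashtag comes from the deposited labels.

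Cells were gated by lineage markers without any cytokine gene of the set, with minimum UMIs set after seeing the data. No doublet caller was run, and 2924 cells of more than 1 lineage were set aside. UMIs were summed per type and tumor, with at least 20 cells per tumor, and tested with edgeR 4.0.16 (glmQLFit, TMM; R 4.3.3, limma 3.58.1) at an adjusted p of 0.05, with the tumor as a block between types. DESeq2 1.42.0, RLE and total-UMI scaling, stricter gates, a stricter hashtag ratio, no filter, the run as a block and leaving out each tumor were alternatives. The run pairs the tumors: deviations from genotype means correlated at 0.169 to 0.402 within a run over 14 types. Levels and shares were computed in Python 3.11.15 (numpy 2.4.6, pandas 2.3.3, scipy 1.17.1), and figures in matplotlib 3.10.9. Limits for counts of 0 rest on 3 counts, and cover counting error only. The text names all 10 members, at most 4 called genes per list and contrast, and the 3 genes most like each member. The members and lists were chosen with earlier results of these data known. Scripts were tested on simulated data, with a spread set in advance. There the genotype test in CD8 T cells recovered 65% of 2-fold and 100% of 4-fold changes.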

Additional observations from a re-analysis of the deposited data

Results flagged for a closer look

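In 5 of 39 groups of 4 tumors with at least 50 UMIs, 1 tumor lay far from the others by Dixon's criterion, where chance gives about 1 in 20 groups. Of the 5, Il22 in conventional CD4 T cells reached 50 UMIs only through 1 cell of the tumor that stood apart. Its flag was thus fixed in advance and does not bear on that comparison. Ifng in CD8 T cells was 3.70 UMIs per 10000 in the Csf1rfl/fl tumor of run 1 and 2.38 to 2.51 in the others. Tnf in regulatory T cells was 0.823 in the same tumor and 0.395 to 0.415 in the others. That tumor also had the most weak hashtags (6.82% of cells); the part of this in either value was not tested. Il10 in conventional CD4 T cells was 0.267 in the Lyve1CreCsf1rfl/fl tumor of run 2 and 0.136 to 0.148 in the others. In that tumor 1 cell held 10 of the 21 UMIs. Il6 in Ly6c2 monocytes was 0.175 in the Csf1rfl/fl tumor of run 2 and 0.0964 to 0.106 in the others, and 1 monocyte held 30 of the 254 UMIs. Il22 in conventional CD4 T cells was 0.626 in the Lyve1CreCsf1rfl/fl tumor of run 1, from 1 cell, and 0 in the others.

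The 24932 barcodes that the authors did not keep also carried every cytokine of the set, above the 0.000175 UMIs per 10000 that a count of 0 allows. Ifng was at 0.726 UMIs per 10000 (0.779 in kept cells), Tnf at 1.02 (0.940), Il15 at 0.445 (0.430) and Il12b at 0.124 (0.162). Lta was at 0.0651 (0.0576), Il10 at 0.0460 (0.0464) and Il6 at 0.0400 (0.0573). Il2 was at 0.0102 (0.00690), Il22 at 0.00303 (0.00634) and Il17a at 0.00286 (0.000870). No comparison of the report uses them.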

How the results depend on the processing

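Of 434 alternative values of member folds between cell types, 382 kept their side of the threshold, 41 lost a call, 9 gained one and 2 called folds turned direction. Folds called in neither fit were counted as kept even where their sign turned. An example is Il6 in CD8 against conventional CD4 T cells, at -0.73 in the main fit and up to 4.05 in the alternatives. Il12b in NK against CD8 T cells turned under stricter gates (0.86, edgeR adjusted p = 0.375). Il10 in CD8 T cells against conventional CD4 T cells without Ikzf2 (0.43, edgeR adjusted p = 0.914) turned by the choice of that set, which was taken because it held 1 Il10 UMI, and the value says nothing on the processing. Under stricter gates or a hashtag ratio of 3, the levels of the 10 members in the type highest in the main gates moved by less than 1 SD between tumors. The order of types could still turn: under stricter gates Lta was 0.199 in gamma delta T cells and 0.288 in conventional CD4 T cells. Il22 in conventional CD4 T cells, from 1 cell, went from 0.156 to 0 UMIs per 10000 without the Lyve1CreCsf1rfl/fl tumor of run 1. Thinned to 2000 UMIs per cell, the share with a UMI was 30.8% for Ifng in CD8 T cells, 12.7% for Il12b and 4.91% for Il6 in mature dendritic cells and 30.4% for Il15 in neutrophils. At 1000 UMIs these were 19.2%, 8.79%, 2.70% and 20.4%, and the shares were 19.7% for Tnf in neutrophils, 2.50% for Il10 in regulatory T cells and 3.05% for Lta in gamma delta T cells.

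Members called in NK against CD8 T cells numbered 2, but 1 under stricter gates, a hashtag ratio of 3 or RLE factors, 4 with no filter on low counts, 0 with no replicate block and 0 to 1 without each tumor. In CD8 against conventional CD4 T cells the 3 became 6 with no filter, and under stricter gates all 3 were lost (Ifng 0.52, Il10 -1.61 and Il15 -0.23, adjusted p = 0.168, 0.233 and 0.807) and the 1 call was Lta (-1.24, edgeR adjusted p = 0.0313). In regulatory against conventional CD4 T cells the 2 became 5 with no filter, 1 with no replicate block, 4 without Ikzf2 cells and 1 to 3 without each tumor. The 4 without Ikzf2 cells rest on a set chosen after its single Il10 UMI had been seen, so they say nothing on the processing. In C1q macrophages against monocytes the 3 became 1 to 3 without each tumor. Between genotypes, 0 members became 1 with no filter (Il22 in CD8 T cells, from 1 cell) or with the replicate block (Il12b in mature dendritic cells), and 0 to 2 without each tumor (Il22 in conventional CD4 T cells in 3 of the 4 fits, from 1 cell, Tnf in cDC1 without the Csf1rfl/fl tumor of run 1 and Tnf in regulatory T cells without that of run 2), while 0 genes became 20 with total UMIs as the only scaling, 4 under stricter gates, 19 with DESeq2, 462 with no filter, 240 with the replicate block and 149 to 455 without each tumor. For the difference of genotype effects, 0 became 1 with no filter and 0 to 1 without each tumor. Apart from Il12b in mature dendritic cells, the block of runs changed no member call between genotypes. The cause of these shifts was not tested. Il2, Il17a and Il22 had 111, 14 and 102 UMIs in all and did not pass the filter on low counts between cell types.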
